A study of Homo sapiens with 17 samples.

Results

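The 10 genes described here build the microvilli of the intestinal brush border: VIL1, ESPN, PLS1 and EPS8 of the actin bundle, EZR and MYO1A of the link between bundle and membrane, and CDHR2, CDHR5, USH1C and MYO7B of the tip links. They were taken by name, are 10 of the 20037 protein-coding genes of the annotation used, and all 10 were found in it. The measurement was Flag ChIP-seq, which maps the DNA held by a Flag-tagged protein, in cells of the Caco-2/15 line, which came from a human colon cancer and grows a brush border once confluent. The cells were heterozygous for a tagged H2AFV gene (now H2AZ2, encoding H2A.Z.2) or a tagged H2AFZ gene (now H2AZ1, encoding H2A.Z.1), so protein from the untagged allele and from the other isoform was not seen by the Flag antibody. The 4 groups were H2A.Z.2 in postconfluent cells (Pc, 7 days after confluence), H2A.Z.2 in subconfluent cells (Sc), H2A.Z.1 in postconfluent cells and H2A.Z.1 in subconfluent cells, each with 2 experiments, Exp1 and Exp2. Every Flag precipitation carried spike-in chromatin and a spike-in antibody. Nothing in the labels says whether the experiments used separate clones, so p-values measure the spread between the 2 peak lists of each group.

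A microvillus is a finger of membrane around a core of parallel actin filaments. Bundling proteins hold the filaments together, ezrin and class I myosins tie the bundle to the membrane, and protocadherins at the tips join neighbouring microvilli through a complex with harmonin and myosin-7B. H2A.Z is a variant of histone H2A that is placed mainly in the nucleosomes beside transcription starts and at enhancers, at active as well as poised genes, and vertebrates make it from a pair of genes whose proteins differ in only a few residues.

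The 8 lists held 30603 to 79425 intervals and covered 18.5 to 46.9 Mb. All counts below use the 30603 strongest intervals of each list unless the whole lists are named. The shortest list, H2A.Z.2 Sc Exp2, was used in full and so reached down to a −log10 p of 5.19, where the other lists stopped at 9.99 to 16.8. The authors' fold enrichment of an interval was read only as a percentile within its own list, where 100 is the strongest. A gene end is called occupied if some interval touches the bases up to 1 kb away from it, outside or inside the gene, and only the better occupied end of each gene was scored. Read depth cannot be read from peak lists, and an unlisted gene may hold signal below the authors' threshold. The peak names give 3 sequencing runs: all Exp2 libraries shared 1, and in Exp1 the H2A.Z.2 and H2A.Z.1 libraries had 1 each, so isoform and run cannot be told apart within Exp1, while both states were in each run. As a look at the labelled cell type, 4 of 12 intestinal epithelial markers (CDH1, CDX1, CDX2 and HNF4A) had an occupied end in every list. The same held for 2 of 10 blood markers (CD3D and CD14), 1 of 10 fibroblast and endothelial markers (COL1A1) and 1 of 8 secretory cell markers (SPINK4). The epithelial defining markers EPCAM, KRT8, KRT18 and KRT19 were occupied in 5, 4, 4 and 4 lists, and LGALS4 in none of the 8. A peak of H2A.Z is not a measure of expression.

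Promoter sequences from RefSeq (GRCh38.p14) were given for 6 of the 10 genes and run from 250 bases before to 50 bases after a transcription start. They are shown here because the peaks of these genes sit on or beside them, and because their base composition differs widely. Windows of 5 of the 6 genes are printed. Capitals mark GGGCGG (the GC box bound by SP1-type factors), TATAAA (the TATA box) and CAAAGTCCA (a sequence of the HNF4 type), on either strand. Neighbouring GC boxes in the EZR window share bases. The windows are, in order, PLS1 at chr3:142596143-142596442 on the plus strand, EZR at chr6:158818186-158818485 on the minus strand, USH1C at chr11:17544367-17544666 on the minus strand, MYO7B at chr2:127535433-127535732 on the plus strand and the inner MYO1A start at chr12:57050080-57050379 on the minus strand.
PLS1: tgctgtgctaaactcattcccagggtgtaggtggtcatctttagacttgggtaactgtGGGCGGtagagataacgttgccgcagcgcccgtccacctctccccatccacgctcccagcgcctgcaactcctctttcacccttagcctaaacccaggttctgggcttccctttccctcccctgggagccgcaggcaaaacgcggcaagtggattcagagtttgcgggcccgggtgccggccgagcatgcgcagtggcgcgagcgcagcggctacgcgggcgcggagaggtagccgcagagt
EZR: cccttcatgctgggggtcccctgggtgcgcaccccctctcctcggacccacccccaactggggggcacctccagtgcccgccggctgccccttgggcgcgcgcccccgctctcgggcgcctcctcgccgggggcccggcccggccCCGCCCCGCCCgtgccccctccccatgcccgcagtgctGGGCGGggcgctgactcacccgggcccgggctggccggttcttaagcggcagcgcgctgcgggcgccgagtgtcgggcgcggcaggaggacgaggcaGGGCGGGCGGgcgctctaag
USH1C: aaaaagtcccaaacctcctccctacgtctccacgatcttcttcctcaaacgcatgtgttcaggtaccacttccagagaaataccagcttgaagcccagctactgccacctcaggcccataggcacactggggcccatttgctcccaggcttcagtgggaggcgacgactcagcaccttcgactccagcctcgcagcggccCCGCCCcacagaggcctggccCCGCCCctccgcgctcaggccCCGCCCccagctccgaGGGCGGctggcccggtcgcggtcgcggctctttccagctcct
MYO7B: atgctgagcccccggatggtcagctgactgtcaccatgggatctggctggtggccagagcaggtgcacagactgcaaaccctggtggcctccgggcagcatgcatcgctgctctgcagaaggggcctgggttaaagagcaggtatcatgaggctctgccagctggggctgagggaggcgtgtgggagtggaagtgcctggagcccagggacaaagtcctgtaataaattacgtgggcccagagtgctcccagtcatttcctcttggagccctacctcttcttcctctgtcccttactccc
MYO1A: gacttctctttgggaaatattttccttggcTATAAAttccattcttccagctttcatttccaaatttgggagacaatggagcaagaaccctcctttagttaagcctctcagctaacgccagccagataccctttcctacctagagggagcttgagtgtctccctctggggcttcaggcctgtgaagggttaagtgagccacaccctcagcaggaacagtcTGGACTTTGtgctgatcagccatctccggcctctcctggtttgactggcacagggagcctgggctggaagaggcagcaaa

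The EZR window holds 36 CpG dinucleotides, 80% G and C and 5 GC boxes, and the PLS1 window holds 24 CpG, 63% G and C and 1 GC box. The USH1C window has 20 CpG, 65% G and C and 4 GC boxes. The MYO7B window has 5 CpG and 59.7% G and C with none of the capitalised sequences, and the MYO1A window has 2 CpG and 51% G and C with 1 TATA box and 1 match to CAAAGTCCA. For comparison, the 35116 promoter windows of the table had a median of 14 CpG and 58.7% G and C; GGGCGG was in 45%, TATAAA in 11.5% and CAAAGTCCA in 0.384% of them. The CDHR2 window at its 5′ end, not printed, has 10 CpG and 58.3% G and C. Whole-list intervals overlapped the PLS1, MYO7B and CDHR2 windows in 8 of 8 lists, the USH1C window in 7 and the MYO1A window in 5. The EZR window, the richest in CpG of these, was overlapped in 1 list. Its peak lies 900 bp farther out, beyond the annotated end of the gene. Other windows of these genes, not printed, were overlapped less often. Those of PLS1 starting at chr3:142623174 and chr3:142656647, of USH1C at chr11:17533836 and of MYO1A at chr12:57051149 were overlapped in 0 lists. The window of MYO7B starting at chr2:127619755 was overlapped in 1 list and that of CDHR2 at chr5:176549092 in 4.

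Tagged H2A.Z was present at the end of most microvillus genes in both growth states and with both isoforms. A total of 6 of the 10 genes, EZR, ESPN, PLS1, CDHR2, CDHR5 and EPS8, were occupied in all 8 lists, a share of 60% beside 54.3% of all protein-coding genes. VIL1 and USH1C were occupied in 6 lists, MYO7B in 7 and MYO1A in 1, and none of the 10 was without a peak, against 33.1% of all genes. Single lists held 7 to 10 of the 10 genes, beside 59.5% to 61.9% of all genes. In the whole lists MYO7B joined those present in all 8, which made 7 of 10, beside 57.7% of all genes, while VIL1 and USH1C reached 7 lists and MYO1A 4. No member was occupied in all 4 lists of one state and none of the other, a pattern seen at 0.13% of all genes for Pc and 0.0948% for Sc, nor in all 4 lists of one isoform only, which was seen at 0.00499% for H2A.Z.2 and 0.0449% for H2A.Z.1.

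**Figure D1:**
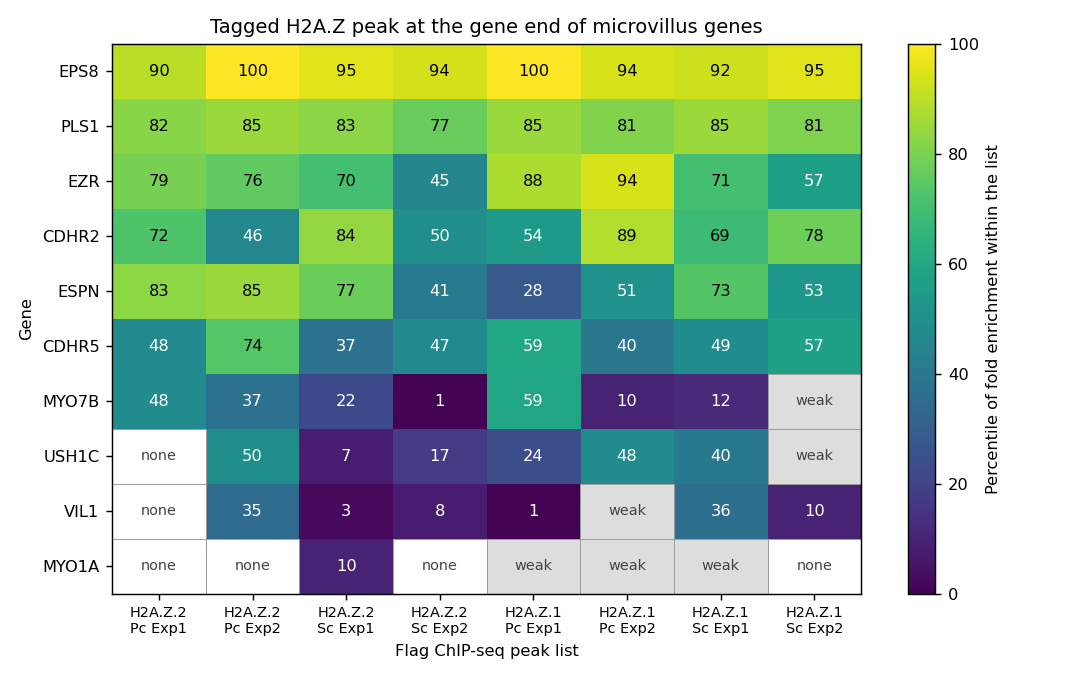
Percentile of fold enrichment, within each list, of the strongest interval within 1 kb of the scored end of each gene (rows), for the 8 Flag peak lists (columns). Grey cells marked weak have a peak in the whole list but not among its 30603 strongest intervals, and white cells have none. EPS8 is the highest of the 10 genes in every list, and VIL1, USH1C, MYO7B and MYO1A hold all the cells without a strong peak.

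Among the actin bundle genes, EPS8, which caps and bundles actin at microvillus tips, had the highest percentile of the 10 in every list. Its peak stood at the 89.6 and 99.9 percentiles for H2A.Z.2 and the 99.7 and 93.9 percentiles for H2A.Z.1 in Pc cells, against 95.1 and 93.7 for H2A.Z.2 and 92.3 and 95 for H2A.Z.1 in Sc cells (Exp1 and Exp2 in each pair). The groups overlapped, with means of 95.8 ± 4.97 in Pc and 94.0 ± 1.32 in Sc (SD, n = 4 each). EPS8 lies at chr12:15620134-15789388, and the peak covers its upper end, with summits 318 to 513 bp outside the gene. In both H2A.Z.2 Pc lists the region is split into 2 intervals around the gene end, and in the other 6 lists it is 1 interval of 1884 to 2169 bp.

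PLS1, which encodes plastin-1 (fimbrin), an actin bundler of intestinal microvilli, lies at chr3:142596393-142713664 and had the smallest range of the 6 genes occupied in all 8 lists. Its percentiles were 82.4 and 85.1 for H2A.Z.2 and 85.1 and 81.2 for H2A.Z.1 in Pc cells, against 82.7 and 76.8 for H2A.Z.2 and 85.1 and 80.6 for H2A.Z.1 in Sc cells. The values overlap between states and between isoforms. All 8 summits lay 142 to 242 bp inside the gene, just downstream of the promoter window printed above, and PLS1-AS1, a long noncoding RNA gene, has an annotated end 484 bp outside it, so the peak lies over both.

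ESPN (chr1:6424776-6461370), which encodes the bundling protein espin, had a peak 167 to 1567 bp outside its lower end. In H2A.Z.2 lists it stood at the 83.2 and 85.0 percentiles in Pc cells, against 77.3 and 40.7 in Sc cells. In H2A.Z.1 lists it stood at 28.1 and 50.9 in Pc cells, against 73.2 and 53.3 in Sc cells. The Pc values were thus above the Sc values with H2A.Z.2 and below them with H2A.Z.1, in both experiments. A second ESPN interval 26014 to 26976 bp inside the gene was in all 8 whole lists.

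VIL1 (chr2:218419123-218453295), which encodes villin, the bundling and severing protein used as a brush border marker, had a weak peak. It was unlisted in H2A.Z.2 Pc Exp1 and at the 35.0 percentile in H2A.Z.2 Pc Exp2, and stood at 0.719 in H2A.Z.1 Pc Exp1 and below the 30603 strongest intervals in Exp2. In Sc cells it was listed in all 4, at 2.54 and 7.96 for H2A.Z.2 and 36.4 and 9.59 for H2A.Z.1. High and low values were found in both states. The summit was 110 to 214 bp inside the lower end in each of the 7 whole lists that held it.

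**Figure D2:**
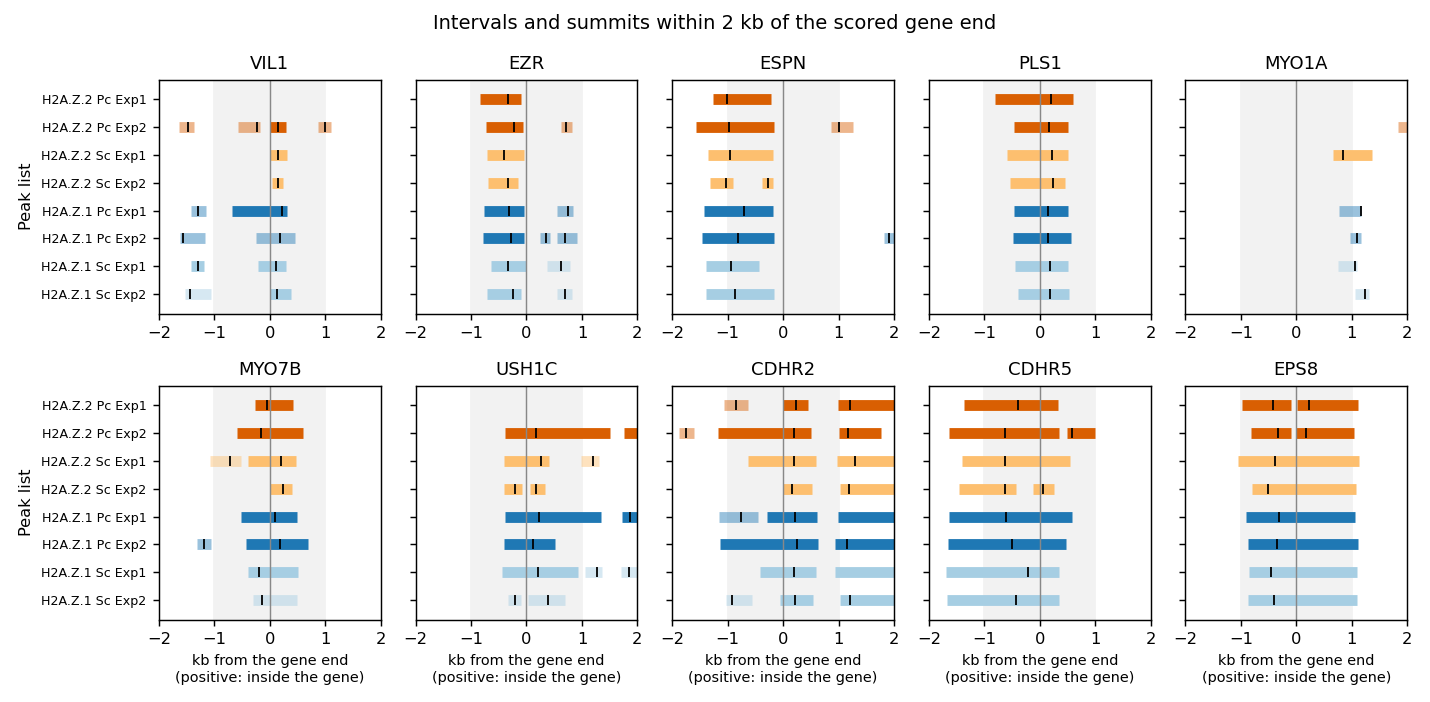
Intervals (bars) and summits (black ticks) of the 8 whole lists within 2 kb of the scored end of each gene, with positive distances inside the gene, in kb. Orange is H2A.Z.2 and blue H2A.Z.1, dark shades are Pc and light shades Sc, pale bars are outside the 30603 strongest intervals, and the grey band is the 1 kb window. EZR, ESPN, CDHR5 and EPS8 have the summit of their strongest interval outside the gene in all 8 lists, and PLS1 inside in all 8.

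Of the linker genes, EZR was the only one of the 10 whose Pc and Sc percentiles did not overlap in the equal-length lists. EZR (chr6:158765748-158819368) encodes ezrin, which ties the membrane to the actin core. Its peak stood at 79.4 and 75.5 for H2A.Z.2 and at 87.8 and 93.9 for H2A.Z.1 in Pc cells. In Sc cells it stood at 69.9 and 45.5 for H2A.Z.2 and at 70.5 and 56.5 for H2A.Z.1. Every Pc list was above every Sc list, with means of 84.1 ± 8.26 in Pc and 60.6 ± 12 in Sc (SD, n = 4 each), a pattern seen at 2.72% of the 10887 genes occupied in all 8 lists. Its opposite, every Pc below every Sc, was seen at 2.6% of them and at no member.

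The EZR peak spans 17 to 842 bp outside the gene's upper end, with summits 227 to 410 bp outside. That stretch is also inside EZR-AS1 (chr6:158817979-158822239), a long noncoding RNA gene, so the interval cannot be given to one of them. A second, weaker EZR interval, 247 to 903 bp inside that end and so nearer to the promoter window printed above, was in 5 whole lists, 3 Pc and 2 Sc, and among the strongest 30603 in none.

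MYO1A (chr12:57028517-57051198), which encodes brush border myosin I, had the weakest mark of the 10. Its interval 663 to 1357 bp inside the 5′ end was in 5 whole lists, 2 Pc and 3 Sc, and among the strongest 30603 only in H2A.Z.2 Sc Exp1, at the 9.78 percentile. The interval overlaps the inner start printed above, with its TATA box, and no interval overlapped the outer promoter window, which has 1 CpG. Both H2A.Z.2 Pc lists and H2A.Z.2 Sc Exp2 lacked the interval.

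Among the tip link genes, the protocadherin genes CDHR5 and CDHR2 were occupied in all 8 lists. MYO7B was occupied in 7 and USH1C in 6, but in the whole lists MYO7B was in 8 and USH1C in 7. CDHR5 (chr11:616583-624955), which encodes the mucin-like protocadherin of the tip link, was occupied at both ends. Its upper end stood at 47.7 and 73.7 for H2A.Z.2 and 59.5 and 39.8 for H2A.Z.1 in Pc cells, against 37.4 and 47.5 for H2A.Z.2 and 48.6 and 57.3 for H2A.Z.1 in Sc cells. Its lower end stood at 50.3 and 60.4 for H2A.Z.2 and 51.8 and 36.1 for H2A.Z.1 in Pc cells, against 22.5 and 48.9 for H2A.Z.2 and 63.9 and 49.0 for H2A.Z.1 in Sc cells. At both ends the states overlapped. The gene has close neighbours: SCT, encoding secretin, lies 1354 bp beyond the upper end, and IRF7, an interferon regulatory factor gene, 633 bp beyond the lower end. The merged region at the upper end reaches into SCT and that at the lower end into IRF7, so neither can be given to CDHR5 alone.

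CDHR2 (chr5:176542511-176595974), which encodes the other protocadherin of the tip link, had 3 regions present in all 8 lists, at its 5′ end, just inside the gene and 35 kb inside. The first spans from 1165 bp outside to 622 bp inside the 5′ end. It stood at 67.0 and 46.3 for H2A.Z.2 and 54.2 and 86.4 for H2A.Z.1 in Pc cells, against 71.1 and 49.9 for H2A.Z.2 and 55.3 and 77.9 for H2A.Z.1 in Sc cells, so the states overlap. The second, 933 to 2827 bp inside, had the higher percentile in all lists except H2A.Z.1 Pc Exp1, at 72.4 and 79.1 for H2A.Z.2 and 49.4 and 88.5 for H2A.Z.1 in Pc cells, against 84.0 and 94.5 for H2A.Z.2 and 68.6 and 97.5 for H2A.Z.1 in Sc cells. The Pc value was the lower in 4 of 4 pairs of the same isoform and experiment, but the ranges overlap, with means of 72.4 ± 16.7 in Pc and 86.2 ± 13.1 in Sc (SD, n = 4 each), and this region was picked after its values were seen and not tested. RNF44, a RING finger gene on the minus strand, has its annotated upper end, its 5′ end, 1002 bp inside CDHR2, at the edge of that region. The first region lies inside RNF44 and the merged second region reaches its 5′ end, so neither can be given to CDHR2 alone. The third, 35167 to 36242 bp inside, stood at 28.6 to 73.4 over the lists.

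The 1 kb window cuts through the second CDHR2 region. Its interval starts 933 to 1027 bp inside the gene, at or before 1 kb in 5 lists and beyond it in 3, so a score at the CDHR2 gene end or in its body compares different intervals between lists.

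USH1C (chr11:17493900-17544416), which encodes harmonin, the scaffold of the tip link, had a peak from 440 bp outside to 1499 bp inside its 5′ end, over the promoter window with 4 GC boxes. It was unlisted in H2A.Z.2 Pc Exp1 and stood at 49.7 in Exp2, and at 24.0 and 48.1 for H2A.Z.1 in Pc cells. In Sc cells it stood at 7.48 and 17.4 for H2A.Z.2 and at 40.4 for H2A.Z.1 in Exp1, and was below the 30603 strongest in Exp2. The states overlapped.

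MYO7B (chr2:127535683-127637726), which encodes the myosin that places the tip link complex, had a peak at its 5′ start in all 8 whole lists, over a promoter window poor in CpG. In the equal-length lists the peak stood at 48.2 and 37.3 for H2A.Z.2 and 59.0 and 9.53 for H2A.Z.1 in Pc cells, against 22.4 and 0.771 for H2A.Z.2 and 12.1 for H2A.Z.1 Exp1 in Sc cells, and it was missing from H2A.Z.1 Sc Exp2. In the whole lists every Pc percentile (59.4, 62.6, 77.8 and 61.7) was above every Sc percentile (56.9, 0.771, 40.0 and 28.5). That pattern was seen there at 2.78% of 11570 genes and its opposite at 0.89%, and of the 10 members it was seen at EZR and MYO7B. Whole lists differ in length, and the lowest of these Sc values comes from the shortest list, so this is given as a description.

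MYO7B also had the most separate regions, 26 of the 60 at or in the 10 genes, and 19 of its 26 were in 1 list only. A region 6085 to 7713 bp inside was in 7 whole lists. Intervals were counted from 20 kb inside the start to 1 kb past the far end of the gene. The whole lists held 0 and 0 such intervals for H2A.Z.2 and 1 and 3 for H2A.Z.1 in Pc cells. In Sc cells they held 3 and 1 for H2A.Z.2 and 6 and 20 for H2A.Z.1. Left uncounted was 1 more H2A.Z.1 Sc Exp2 interval, 102038 to 103189 bp from the start, which ran past that limit. That interval was among the 30603 strongest. The sums are 4 in Pc and 30 in Sc, or 10 in Sc without H2A.Z.1 Sc Exp2, which alone gave 20. Among the 30603 strongest intervals the counts were 0 in each of 4 Pc lists, against 2, 1, 1 and 2 in the Sc lists. The region 6085 to 7713 bp inside ran the other way, among the 30603 strongest in 3 Pc lists and 1 Sc list. All MYO7B body intervals among the strongest 30603 came to 4 in Pc and 7 in Sc, with overlapping ranges of 0 to 2 in Pc and 1 to 2 in Sc lists. Over all genes the body intervals came to 30189 in Pc and 29428 in Sc in the equal-length lists, and to 66460 in Pc and 55544 in Sc in the whole lists.

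A single MYO7B region, at chr2:127591254-127592188, 55571 to 56505 bp inside the gene, was in all 4 whole Sc lists and in no Pc list, as were 41 of 114535 regions of the merged lists (0.0358%), and 437 (0.382%) were in all 4 Pc lists and no Sc list. It was weak, at the 4.14, 21.5 and 24.2 percentiles of 3 Sc lists and below the 30603 strongest in H2A.Z.1 Sc Exp1. This region and the 20 kb limit were picked after the values were seen, and neither was tested.

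**Figure D3:**
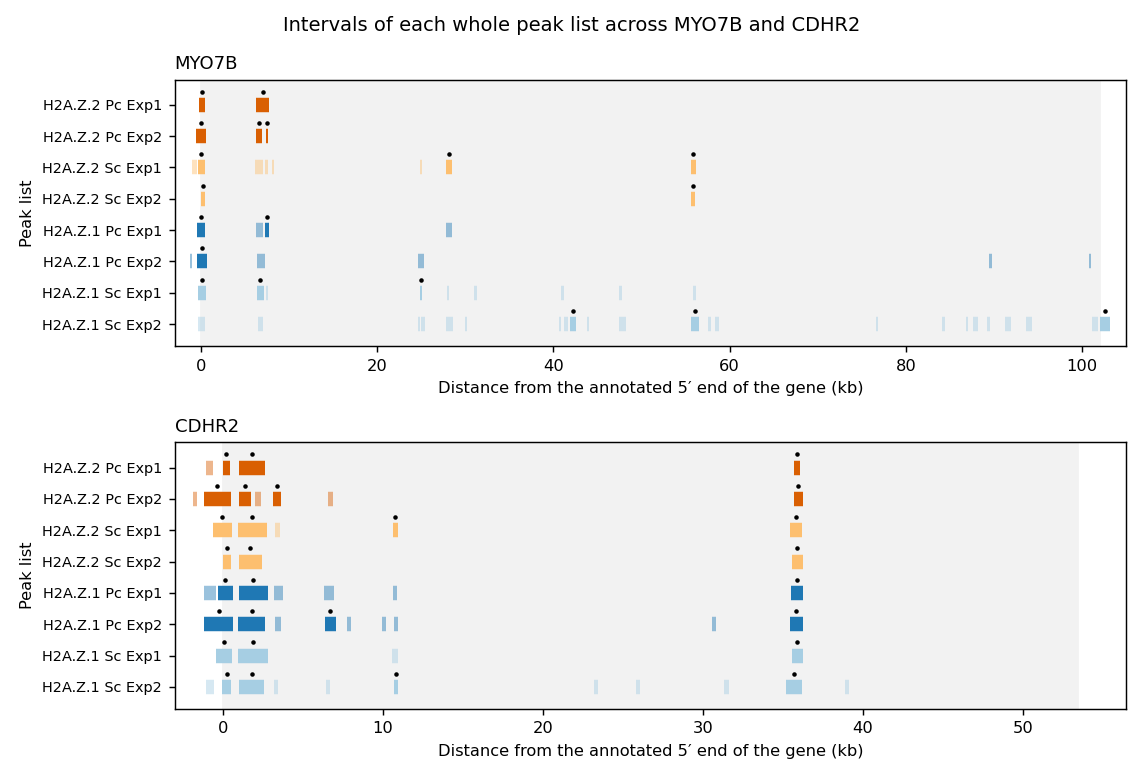
Intervals of the 8 whole lists across MYO7B (top) and CDHR2 (bottom) by distance from the annotated 5′ end in kb, with the gene in grey. Orange is H2A.Z.2, blue H2A.Z.1, dark shades Pc and light shades Sc; dots mark intervals among the 30603 strongest and pale bars the others. The 2 H2A.Z.2 Pc lists hold no MYO7B interval beyond 20 kb. H2A.Z.1 Sc Exp2 holds 20 that end by 1 kb past the gene and 1 that runs farther. CDHR2 has its 3 shared regions in every row.

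The comparison of states asked whether the standing of a gene end among all gene ends differed between postconfluent and subconfluent cells. It was made on normal scores, the rank of a gene's strongest interval among the 10887 genes occupied in all 8 lists put on the scale of a standard normal distribution, and tested with limma. None of the 6 scored members passed an adjusted p of 0.05, and 0.0459% of all genes did. The largest difference of the 6 was that of EZR, 1.08 ± 0.364 (SE; limma, unadjusted p = 0.00727, adjusted p = 0.339), higher in Pc in 4 of 4 pairs, 0.65 within Exp1 and 1.51 within Exp2. An unadjusted p under 0.05 was reached by 9.14% of all genes and by EZR alone among the 6. EPS8 differed by 0.68 ± 0.439, CDHR5 by 0.29 ± 0.361, PLS1 by 0.09 ± 0.341, ESPN by 0.08 ± 0.393 and CDHR2 by -0.20 ± 0.437 (SE), with limma adjusted p-values of 0.656 to 0.973. With 1 library left out, EPS8 ran from 0.15 to 1.21 and CDHR5 from 0.076 to 0.50, both lowest without H2A.Z.2 Pc Exp2. The median over the 6 was 0.19, with 5 above 0, and over all genes -0.0026, with 49.8% above 0. The members left out of the fit were VIL1, MYO1A, MYO7B and USH1C, which lacked a peak in at least 1 list. With whole lists MYO7B could be scored, and it differed by 1.14 ± 0.404 (SE; limma adjusted p = 0.351).

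Within H2A.Z.2, Pc minus Sc was 0.73 ± 0.515 for EZR and 1.01 ± 0.556 for ESPN (SE, limma adjusted p = 0.911 and 0.855). Within H2A.Z.1 it was 1.43 ± 0.515 for EZR and -0.86 ± 0.556 for ESPN (SE, limma adjusted p = 0.581 and 0.856). With 1 library left out, the values within H2A.Z.2 ran from 0.23 to 1.22 for EZR and from 0.27 to 1.73 for ESPN, both lowest without H2A.Z.2 Sc Exp2. Those within H2A.Z.1 ran from 1.17 to 1.68 for EZR and from -1.28 to -0.43 for ESPN. No gene end passed in either isoform alone (0% of 10887), where an unadjusted p under 0.05 was reached by 5.81% of genes for H2A.Z.2 and 6.9% for H2A.Z.1. The opposite signs at ESPN gave a difference between isoforms in the state effect of 1.87 ± 0.787 (SE; limma, unadjusted p = 0.0269, adjusted p = 1.000), and no gene passed that test (0%), with 3.13% at an unadjusted p under 0.05. The ESPN value ran from 1.13 to 2.59 with 1 library left out, lowest without H2A.Z.2 Sc Exp2.

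Between isoforms, no member and no gene (0% of 10887) passed, and 3.73% had an unadjusted p under 0.05. ESPN was higher for H2A.Z.2 by 0.87 ± 0.393 (SE; limma, unadjusted p = 0.0386, adjusted p = 1.000) in 3 of 4 pairs, 1.26 within Exp1 and 0.48 within Exp2, and at 0.50 to 1.23 with 1 library left out. EZR differed by -0.49 ± 0.364, CDHR2 by -0.36 ± 0.437, PLS1 by -0.06 ± 0.341, EPS8 by 0.04 ± 0.439 and CDHR5 by 0.10 ± 0.361 (SE). The median over the 6 members was -0.01 with 3 above 0, beside a median of 9.02e-05 over all genes with 5445 of 10887 above 0. By percentile, no member had every H2A.Z.2 list above or every one below all H2A.Z.1 lists, patterns seen at 0.955% and 1.17% of the 10887 genes. For CDHR2 and EPS8 the experiments gave opposite signs, 0.84 and -1.56 for CDHR2 and -0.71 and 0.79 for EPS8 (Exp1 and Exp2).

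**Figure D4:**
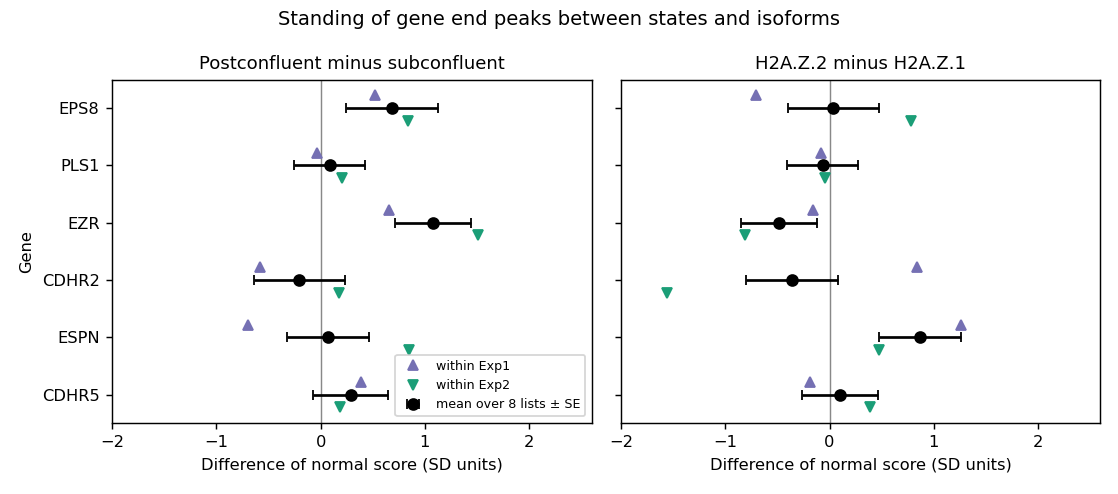
Difference of the normal score (standard deviation units) between Pc and Sc over both isoforms (left) and between H2A.Z.2 and H2A.Z.1 over both states (right) for the 6 scored genes. Black points with bars are the limma estimate over 8 lists ± SE, and triangles the differences within Exp1 and Exp2; EZR stands highest on the left at 1.08, and none of the 12 values passed the test.

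In gene bodies, more than 1 kb from both ends, ESPN and CDHR2 had an interval in all 8 lists, as did 2545 genes (12.7% of all). VIL1, EZR, PLS1, CDHR5 and EPS8 had none in any whole list, as was true of 56.1% of all genes. Pc minus Sc was -0.39 ± 0.359 for ESPN and -0.84 ± 0.564 for CDHR2 (SE, limma adjusted p = 0.747 and 0.609), with CDHR2 lower in Pc in 4 of 4 pairs, and 0.0786% of the 2545 genes passed. With 1 library left out, ESPN ran from -0.73 to -0.053, nearest 0 without H2A.Z.2 Sc Exp1, and CDHR2 from -1.50 to -0.18, nearest 0 without H2A.Z.1 Sc Exp2. Different CDHR2 intervals were scored in different lists, as given above, and the ESPN score of H2A.Z.1 Pc Exp2 came from an interval 5186 to 5663 bp inside the gene in place of that at 26 kb. No gene passed between isoforms in the body (0%), and 3.97% had an unadjusted p under 0.05.

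A further 30 genes of microvilli and the brush border, among them other myosins, ezrin's relatives, scaffolds and apical transport genes, were described in the same way. A total of 17 of 30 (56.7%) were occupied in all 8 lists, beside 54.3% of all genes, and none had a peak in every list of one state or isoform only. Of the 17 scored, 9 were above 0 and 8 below for Pc minus Sc, with a median of 0.06, and none passed. The highest for Pc minus Sc were BAIAP2L2 at 0.63 ± 0.404, COBL at 0.55 ± 0.395 and PACSIN2 at 0.51 ± 0.371, all 3 encoding proteins that shape membrane or nucleate actin at the brush border. The lowest were STK10 at -0.48 ± 0.437, a kinase of ezrin-type proteins, MYO6 at -0.41 ± 0.353, a motor that moves to the minus end of actin, and EPS8L2 at -0.39 ± 0.367, a relative of EPS8 (SE, limma adjusted p = 0.656 to 0.794 over the 6 genes). For H2A.Z.2 minus H2A.Z.1, 13 of the 17 were above 0, with a median of 0.31, and none passed. Named after their values were seen, VILL, MSN, LCP1 and TMIGD1 had no peak in any whole list, 13.3% of the 30 genes, beside 26.1% of all genes.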

How the data were processed

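Flag ChIP-seq libraries of 4 groups with 2 experiments each were sequenced as single reads of 85 bp, per the labels' protocols. The submitters' processing notes name hg38, BWA and deepTools. Replicates were not pooled, since each library has its own deposited list. Peak caller, control and use of the spike-in: not given in the sources used here. In each list the deposited score is 10 times the −log10 q-value, the authors' fold enrichment is a ratio (fold), and the deposited −log10 p-value and −log10 q-value rank confidence.

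Lists were reduced to the 30603 intervals of highest −log10 p, and fold enrichment was turned into percentiles within a list. Gene coordinates and promoters came from RefSeq (GRCh38.p14). The scored end of a gene was that with the larger percentile averaged over the 8 lists, at a minimum overlap of 1 bp with the 1 kb window. Promoter entries matched 6 members by symbol and gave their strand; the other 4 are described by lower and upper end. Normal scores of genes present in all 8 lists went into limma 3.58.1 under R 4.3.3, with a mean for each of 4 groups and 2-sided tests, with Benjamini-Hochberg adjustment at 0.05 over all genes fitted. The fit was tested on simulated data. Alternatives changed list length, window, overlap, ranking, gene end, blocking and the libraries used.

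Members and gene lists were chosen with earlier results of these data known. Named were all 10 members, their neighbours within 1 kb of a scored interval, and, of the 30 further genes, those past a threshold or with a peak in every list of one state or isoform only, plus the 3 highest and 3 lowest by state difference. Precipitations of total H2A.Z and the input were not analysed here. Interval lists give no read depth, so no counting interval or floor is stated.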

Additional observations from a re-analysis of the deposited data

How the results depend on the processing

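No member passed an adjusted p of 0.05 under any alternative. EZR stayed above 0 in every setting where it was scored, at 0.83 to 1.32, with a lowest limma adjusted p of 0.188. Counts of called gene ends for Pc minus Sc were 5 in the main setting, 9 with a replicate block, 16 with a sequencing run block (chosen after seeing the data), 0 with half-length lists, 0 with lists of equal covered length, 3 with the summit in the window, 41 when ranked by −log10 p, 3 with the annotated start only, and 0 to 5 with 1 library left out. They fell to 0 without H2A.Z.2 Pc Exp1, H2A.Z.2 Sc Exp2, H2A.Z.1 Pc Exp2 or H2A.Z.1 Sc Exp2, and were 2 without H2A.Z.2 Sc Exp1 and 3 without H2A.Z.1 Pc Exp1. For H2A.Z.1 alone the count of 0 became 2 with a replicate block, 2 with a run block, 3 with a 2 kb window and 0 to 2 with 1 library left out. For H2A.Z.2 alone 0 became 1 with a replicate block, 1 with a 500 bp window and 0 to 1 with 1 library left out. Between isoforms 0 became 1 with a run block. In the body, 2 calls between states became 0 with a replicate block, whole lists or half-length lists, 1 with equal covered length, 7 when ranked by −log10 p and 0 with any 1 library left out, and the isoform count of 0 became 0 to 1. Members present in all 8 lists numbered 6 of 10 in the main setting, beside 10887 of 20037 genes. With half-length lists they numbered 3 of 10, beside 7511 of 20037 genes. The annotated start only gave 2 of the 6 that could be measured, beside 9150 of 15843 genes. With 1 library left out, 6 to 7 were present in the remaining 7 lists, beside 10916 to 11013 genes. Experiment numbers deviated together within an isoform (r = 0.158 for H2A.Z.2 and 0.207 for H2A.Z.1, across genes) and showed no such correlation across isoforms (-0.055 to 0.050). The Pc and Sc lists of an isoform were thus weakly tied by experiment, while the numbers did not pair all 4 groups. The main fit ignores that tie. The run block takes it in for Pc minus Sc, because with the 4 group means it equals a block by isoform and experiment. With it, 16 gene ends were called between states, and EZR had a limma adjusted p of 0.188. The replicate block and the run block are given only as alternatives. Some differences that passed no test changed sign. CDHR2 between states was -0.20 in the main setting, 0.00061 with a 500 bp window, 0.0091 with summits and -0.81 with a 2 kb window, and between isoforms 0.15 with a 2 kb window. Ranked by −log10 p, the isoform difference was -0.0031 for CDHR5 and -0.13 for EPS8. With 1 library left out, the state difference ran from -0.29 to 0.43 for ESPN, -0.0086 to 0.18 for PLS1 and -0.61 to 0.21 for CDHR2. The isoform difference then ran from -0.16 to 0.032 for PLS1, -0.77 to 0.055 for CDHR2, -0.12 to 0.31 for CDHR5 and -0.49 to 0.57 for EPS8. The cause of these shifts was not tested.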
